A study of Homo sapiens with 54 samples.

Results

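The regions described here are the ChIP-seq peaks that begin between 115,000,000 and 117,000,000 on chromosome 8 (build hg38), a 2-Mb window that holds the gene TRPS1. Chromatin immunoprecipitation followed by sequencing (ChIP-seq) recovers the DNA bound by a protein, or carrying a histone mark, and a peak list gives the stretches where it was enriched. Every row of the 16 deposited lists whose start lay between those limits was taken, which gave 1832 of 518593 regions. The window was selected on the number of POLR3GL regions in it, so its POLR3GL counts are a description and support nothing. The lower flank is the 2 Mb just before the window and the upper flank the 2 Mb just after it.

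T47D cells were used, an established luminal breast cancer line in which the progesterone receptor (PR) is present. They were treated for 1 h with ethanol as vehicle or with R5020, a synthetic progestin that activates PR. The study asked how PR and Maf1 act on RNA polymerase III at tRNA genes. The 8 antibodies were against PR, against POLR3A, POLR3C, POLR3G and POLR3GL (subunits of RNA polymerase III), against the initiation factor Brf1, the polymerase III repressor Maf1, and histone H3 acetylated at lysine 27 (H3K27Ac). Each of the 16 lists, 1 per antibody and treatment, stands for 3 libraries. There is therefore no spread between replicates and no p-value, and each treatment comparison sets 1 list against another. The treatment tag of 4 libraries titled R5020 says ethanol (2 for POLR3C, 1 for POLR3G, 1 for POLR3GL). Groups follow the titles, and for these 3 subunits "R5020" means the list titled so.

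RNA polymerase III makes tRNAs, 5S ribosomal RNA, U6 RNA and other short RNAs. POLR3G and POLR3GL are alternative paralogs of the same subunit position in the enzyme, POLR3A is its largest subunit, and POLR3C sits beside POLR3G or POLR3GL. Brf1 brings the enzyme to tRNA promoters, and Maf1 binds the enzyme and represses it. H3K27Ac marks active promoters and enhancers. TRPS1 encodes a GATA-type zinc finger protein that represses transcription and is abundant in luminal breast cells. It is transcribed towards lower coordinates, so the upper end of its span is its start.

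The label names TRPS1, but the gene fills only part of the window. The RefSeq span of TRPS1 runs from 115408496 to 115668975 (260.5 kb of the 2000 kb), and 193 of the 607 vehicle POLR3GL regions began inside it. No chromatin contact data were used, so the stretch is called a window and not a domain. The 10 luminal genes checked included ESR1, PGR, GATA3, FOXA1 and TRPS1 itself. H3K27Ac lay within 1 kb of an end of all 10 in both treatments, which matched the label of the cells. It did so at 1 of 4 basal or mesenchymal genes in vehicle and 2 of 4 with R5020, and at 1 and 0 of 2 blood genes. KRT5, KRT14 and the blood gene PTPRC had no region in either treatment. TP63 had 1 in each, VIM 1 with R5020 only, and the blood gene CD3E 1 in vehicle only.

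Regions of 11 of the 16 lists fell in the window. POLR3GL had 607 in the vehicle list and 305 in the R5020 list. POLR3G had 86 and 67, H3K27Ac had 195 and 185, PR had 29 and 290, and Maf1 had 14 and 53. POLR3A had 0 and 1. POLR3C and Brf1 had 0 in both lists, although those lists held 673 and 699 regions for POLR3C and 370 and 1173 for Brf1 over the genome. A count of 0 is ordinary for these 3 antibodies: the median 2-Mb window of the genome held 0 regions in each of their lists.

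**Figure D1:**
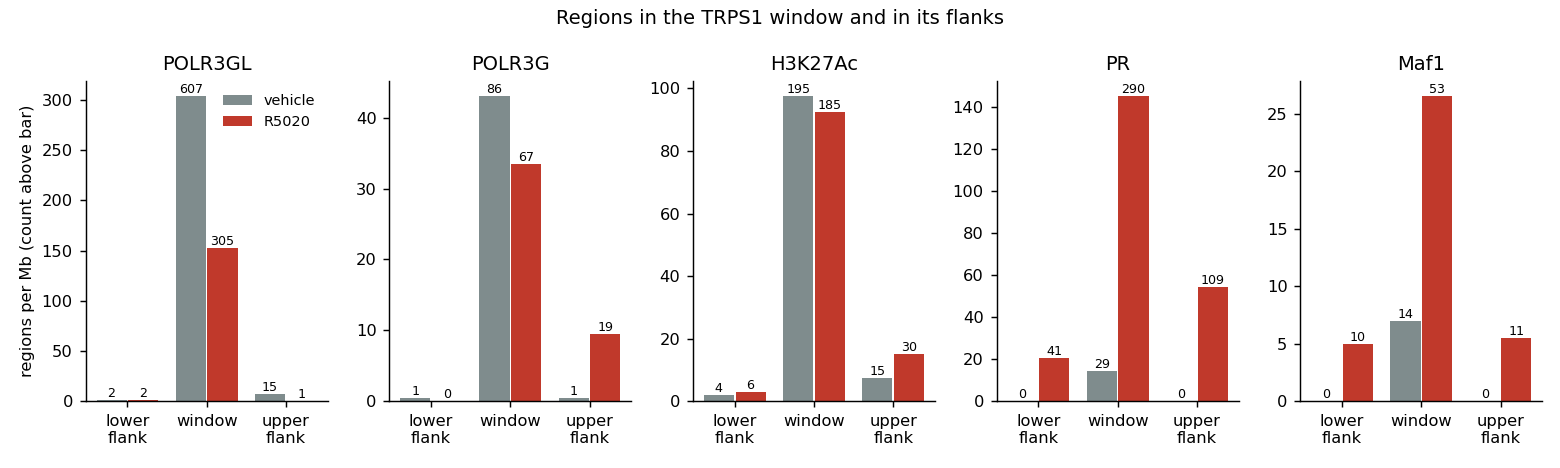
Regions per Mb (vertical axes, each antibody on its own scale) in the lower flank, the window and the upper flank, with the number of regions above each bar, for vehicle (grey) and R5020 (red). In every panel the window is higher than either flank. POLR3GL has the most regions in the window, 607 and 305, against 17 and 3 in both flanks together. As a ratio to the flanks, vehicle POLR3G (86.0) exceeds vehicle POLR3GL (71.4). Vehicle PR and Maf1 have 0 flank regions, so they have no finite ratio.

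POLR3GL took up the window as no other antibody did. The window held 55.0% of the vehicle POLR3GL list of 1104 regions (95% Wilson interval 52.0 to 57.9) and 50.6% of the R5020 list of 603 (46.6 to 54.6). The same stretch held 0.147% and 0.143% of the POLR3G lists, 0.219% and 0.164% of the H3K27Ac lists, 0.435% and 0.168% of the PR lists, and 0.459% and 0.234% of the Maf1 lists. These and all later intervals cover the counting error of regions only, and neighbouring regions are not independent. Among 3043 windows of 2 Mb that begin at each whole Mb of chromosomes 1 to 22 and X, none had more POLR3GL regions. The highest that did not overlap it had 34 in vehicle, on chromosome 3 from 17 to 19 Mb, and 24 with R5020, on chromosome 11 from 100 to 102 Mb.

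The other antibodies were also denser in the window than around it, but many windows elsewhere held more. Per Mb, the window had 71.4 times as many vehicle POLR3GL regions as the flanks (44.2 to 123), and with R5020 203 times (68.9 to 991), the latter against 3 flank regions. For H3K27Ac the ratio was 20.5 (12.8 to 34.8) in vehicle and 10.3 (7.16 to 15.1) with R5020. For POLR3G it was 86.0 in vehicle (23.1 to 722), which rests on 2 flank regions, and 7.05 with R5020 (4.19 to 12.4). The R5020 lists of PR and Maf1 gave 3.87 (3.16 to 4.74) and 5.05 (2.99 to 8.81), and their vehicle lists had no flank region. Windows with more regions numbered 192 and 359 of 3043 for H3K27Ac, 348 and 356 for POLR3G, 73 and 118 for Maf1, and 23 and 31 for PR. The median window held 105 PR regions with R5020, against 290 here. Input libraries were not analysed here, so the part of local copy number and mappability in the ratios to the flanks was not tested.

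The limits of the window lay in sparse stretches of the POLR3GL lists. In vehicle the last region below the lower limit was at 114967787 to 114968168 (fold 2.74, the authors' enrichment of a region over background) and the first above it at 115001378 to 115001657 (fold 2.92). At the upper limit the neighbours were 116994521 to 116994771 (fold 2.74) and 117013856 to 117014249 (fold 2.92), both in SLC30A8, a zinc transporter gene of insulin granules. With R5020 the lower neighbours were 114996691 to 114996893 (fold 3.48) and 115018982 to 115019187 (fold 3.27). The upper ones were 116994526 to 116994730 (fold 2.68) and 117961868 to 117962040 (fold 3.17, in EXT1, a heparan sulfate polymerase gene). Folds are used here only within a list.

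The regions of the window were wider than those of the same list elsewhere for POLR3GL, POLR3G and PR, and not for H3K27Ac. The median POLR3GL width was 347 bp in vehicle against 269 bp elsewhere, and 344 against 248.5 bp with R5020. Regions over 1 kb made up 7.41% of the vehicle POLR3GL regions (45) against 0.805% elsewhere (4), and 9.18% (28) against 3.02% (9) with R5020. All 5 of the widest R5020 POLR3GL regions and 4 of the 5 widest vehicle ones lay in the window. Their folds were ordinary for the list: the median was 2.81 in vehicle against 2.89 elsewhere, and 2.97 against 3.04 with R5020. POLR3G medians were 461 against 376 bp and 349 against 321 bp, PR medians 370 against 292 bp and 315.5 against 280 bp. H3K27Ac medians were 471 against 475 bp and 364 against 404 bp, and Maf1 medians 292.5 against 267 bp and 276 bp in both places.

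POLR3GL regions followed each other closely. The median gap between neighbours was 0.792 kb in vehicle and 0.866 kb with R5020. When regions less than 5 kb apart were joined, the longest run reached 309.6 kb in vehicle and 223.5 kb with R5020. In bases, POLR3GL regions covered 289.5 kb of the window in vehicle (14.5%) and 160.6 kb with R5020 (8.03%). Vehicle POLR3G covered 211.6 kb and vehicle H3K27Ac 255.2 kb of it, with fewer and wider regions. Lengths of different antibodies' lists are not on a common scale of depth.

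**Figure D2:**
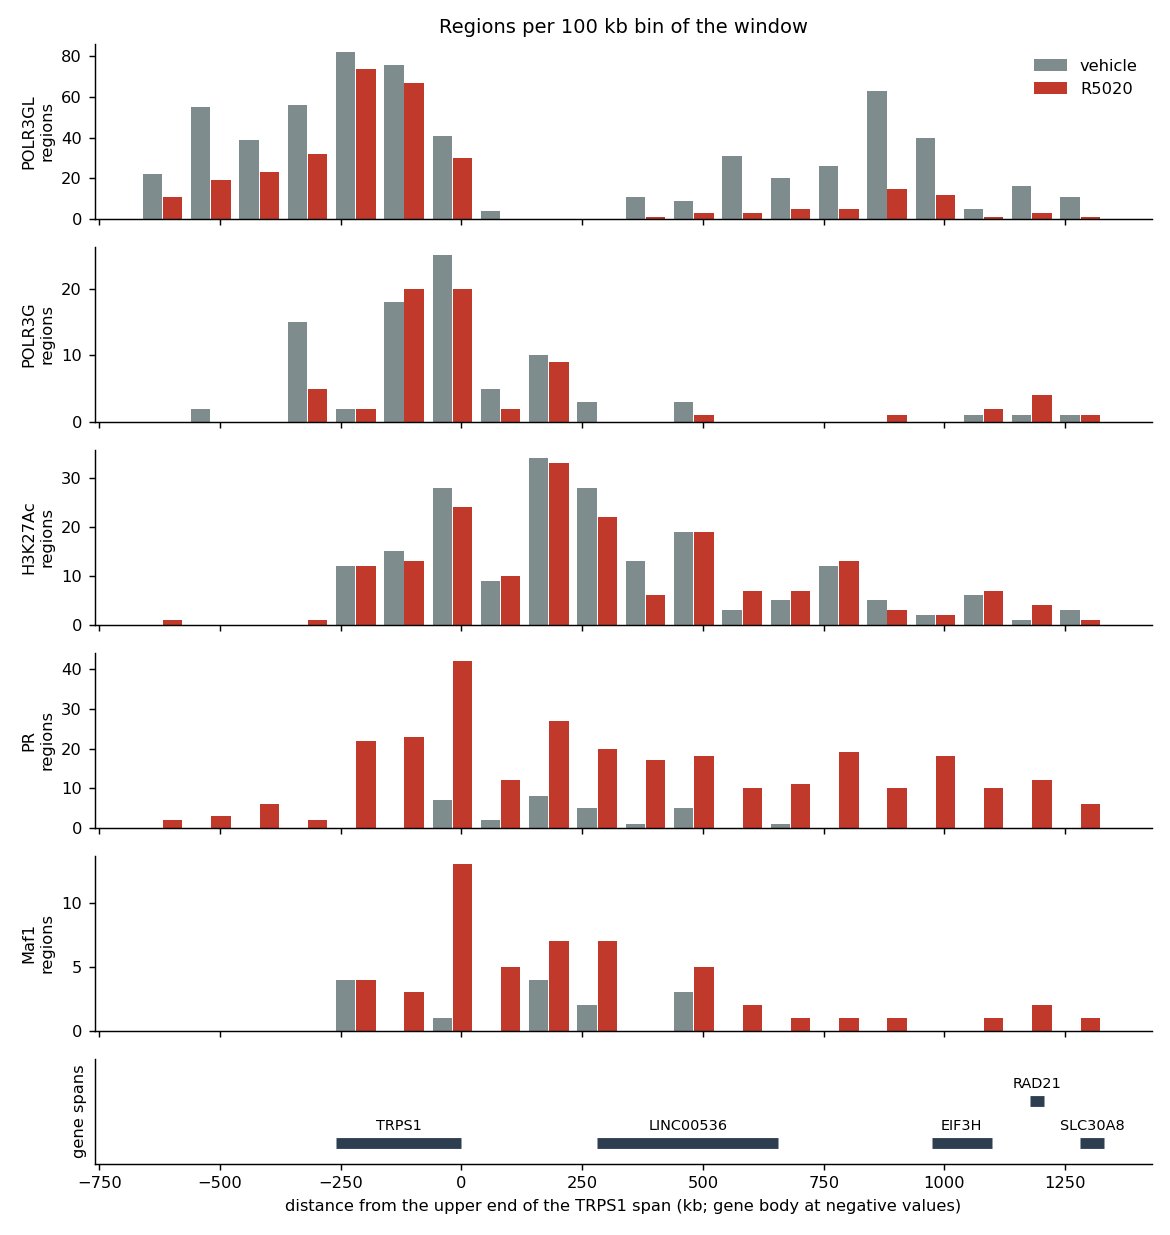
Number of regions (vertical axes) in each of the 20 bins of 100 kb of the window, against distance in kb from the upper end of the TRPS1 span, for vehicle (grey) and R5020 (red), with gene spans at the foot. POLR3GL is highest in the TRPS1 body, at 82 and 74 regions per bin, and is 0 in the bin centred 181 kb beyond the gene's start, where H3K27Ac is highest at 34 and 33.

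The antibodies were densest in different places of the window. POLR3GL and POLR3G were densest over TRPS1. H3K27Ac covered the largest share of bases beyond the gene's start, between TRPS1 and the long noncoding RNA gene LINC00536 (115950511 to 116325059). By number its vehicle regions were nearly alike, at 19.2 per 100 kb in TRPS1 and 21.0 beyond it. In vehicle the fullest bin of 50 kb (23 regions) lay in TRPS1. With R5020 there were 14.6 and 21.0 per 100 kb. Over the 20 bins of 100 kb, which share the libraries and lists, the Spearman correlation of POLR3GL counts was 0.95 between treatments. POLR3GL and H3K27Ac counts had -0.34 in vehicle and -0.27 with R5020, and H3K27Ac and PR counts had 0.73 and 0.87. H3K27Ac and Maf1 had 0.69 and 0.87. POLR3G counts had 0.46 and 0.40 with H3K27Ac, and -0.02 and 0.16 with POLR3GL. However, a wide POLR3G region counts only in the bin of its start. By bases the order was the opposite. Of the vehicle POLR3G bases in the window, 50.55% were under POLR3GL and 17.82% under H3K27Ac. With R5020 the shares were 46.94% and 15.74%. The correlation of POLR3GL and PR counts was -0.57 in vehicle and -0.06 with R5020. The bin with the most R5020 PR regions (42) also held 30 R5020 POLR3GL regions, but bins of 50 kb set them apart. From 115.6 to 115.65 Mb there were 29 POLR3GL and 18 PR regions, and from 115.65 to 115.7 Mb 1 and 24. These values are descriptions and carry no test.

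Inside TRPS1, POLR3GL had 193 vehicle regions and 166 R5020 regions, which covered 48.6% and 44.1% of the span. POLR3G had 40 and 40 and covered 69.3% and 69.8%. Most of the bases under POLR3GL were also under POLR3G there (78.0% in vehicle and 76.8% with R5020), and few were under H3K27Ac (8.43% and 7.77%). H3K27Ac regions in the span numbered 50 and 38 and covered 16.9% and 14.2%. PR regions rose in number from 3 to 76 and Maf1 regions from 0 to 13. Regions are assigned by their start, and the widest vehicle POLR3G region begins 7 bp before the span, so it is counted outside it.

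The widest POLR3G regions of the whole genome lay over TRPS1. The vehicle list's widest, from 115408489 to 115476063, was 67575 bp long (fold 5.57), and it overlapped 58 vehicle POLR3GL regions and 11 vehicle H3K27Ac regions. With R5020 the widest ran from 115476317 to 115546260, 69944 bp (fold 5.28), and overlapped 48 R5020 POLR3GL regions and 20 R5020 PR regions. Outside the window the widest POLR3G regions were 39249 bp and 25986 bp. Of the 9 vehicle POLR3G regions over 20 kb, 3 lay here, as did 2 of the 5 with R5020.

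The strongest vehicle POLR3GL region lay just beyond the lower end of TRPS1, where the gene ends. It ran from 115403232 to 115406526 (3295 bp), 1969 bp from the gene. Its fold of 4.73 was the highest of the whole vehicle list, and no region of that list exceeded its -log10 q of 13.7. It overlapped 3 R5020 POLR3GL regions, POLR3G in both treatments and 2 Maf1 regions in each, and no PR or H3K27Ac region. The R5020 list had a region of 4018 bp there, from 115403977 to 115407994 (fold 4.55). The POLR3G regions with the highest -log10 q of the window covered the same place, from 115399691 to 115408200 in vehicle (8510 bp, fold 6.53, -log10 q 31.4) and from 115399892 to 115408192 with R5020 (8301 bp, fold 6.95, -log10 q 32.1). The widest vehicle Maf1 region of the window, 115405083 to 115405683 (601 bp, fold 3.53), was one of 4 Maf1 regions in that vehicle POLR3G region. Both POLR3 paralogs and Maf1 thus met there in vehicle without PR and without acetylation, and with R5020 a single PR region touched the POLR3G region.

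The other POLR3GL regions of highest fold were mostly in the TRPS1 body. In vehicle they were 115506131 to 115507926 (fold 4.07), 115490054 to 115493256 (3.99) and 115498851 to 115500765 (3.89), and all 3 overlapped a POLR3G region. The remaining one, 115297099 to 115297367 (fold 3.83), lay 111128 bp from TRPS1 and overlapped no other antibody. With R5020 the highest was a narrow region of 287 bp at 115585915 to 115586201 (fold 4.56, -log10 q 10.1), which overlapped H3K27Ac and POLR3G. The others were 115571254 to 115575162 (4.33), 115567355 to 115568459 (4.14) and 115546352 to 115547701 (4.10). The widest R5020 POLR3GL region of the genome, 115506504 to 115512977 (6474 bp, fold 3.30), covered the antisense RNA gene TRPS1-AS1.

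The start of TRPS1 carried the broadest and strongest acetylation of the window. In vehicle the H3K27Ac region ran from 115646811 to 115673796 (26986 bp, fold 21.6, -log10 q 146), and 15 of the 88870 regions of its list were wider. With R5020 it ran from 115645177 to 115673516 (28340 bp, fold 27.8, -log10 q 179), and 7 of 112543 were wider. In vehicle it overlapped 19 POLR3G regions, 5 POLR3GL regions, 4 PR regions and 1 Maf1 region. The R5020 region overlapped 16 POLR3G, 6 POLR3GL, 18 PR and 10 Maf1 regions of the R5020 lists. The widest R5020 Maf1 region of the window, 115668410 to 115669830 (1421 bp, fold 7.38), lay across the gene's upper end. No POLR3GL region came within 1 kb of that end in either treatment, and 2 vehicle and 1 R5020 regions came within 1 kb of the lower end.

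The starts of the other genes of the window were mostly acetylated. H3K27Ac lay within 1 kb of the start, in both treatments, of EIF3H (a translation initiation factor subunit), UTP23 (a ribosome assembly factor), RAD21 (the cohesin kleisin subunit) and AARD. It was not found at the start of SLC30A8. POLR3GL lay within 1 kb of none of the first 4 starts in either treatment, and of the start of SLC30A8 in vehicle only (1 region), but with so few POLR3GL regions in these spans such zeros are little informative. In the spans with 10 kb on either side, POLR3GL regions numbered 198 in vehicle and 172 with R5020 for TRPS1 and 24 and 7 for EIF3H. They numbered 7 and 0 for RAD21, 3 and 0 for AARD, 1 and 0 for UTP23, and 12 and 1 for SLC30A8. In vehicle that was 70.6 POLR3GL regions per 100 kb for TRPS1, 16.6 for EIF3H and 14.3 for RAD21.

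**Figure D3:**
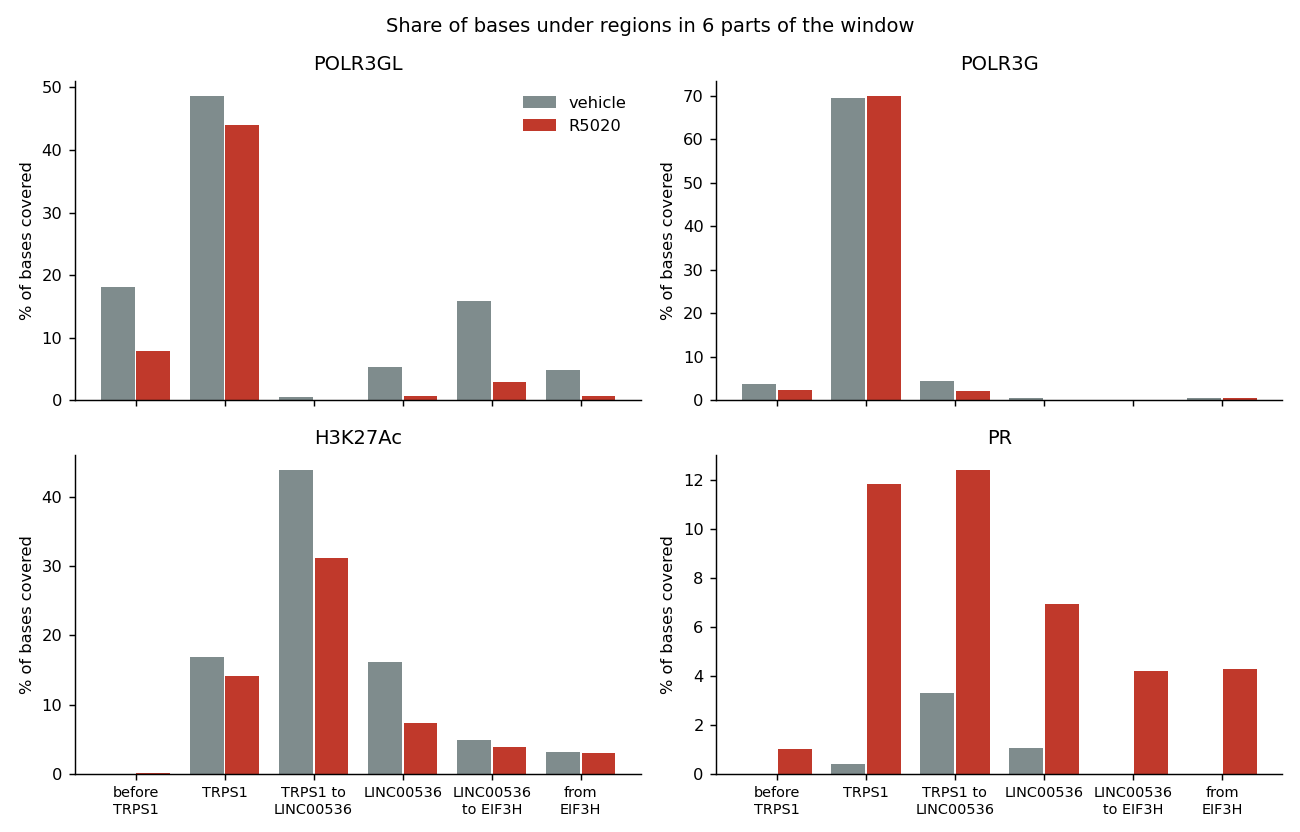
Percent of bases under regions (vertical axes, each antibody on its own scale) in 6 parts of the window bounded by genes, for vehicle (grey) and R5020 (red). POLR3GL and POLR3G cover a larger share of TRPS1 than of any other part (48.6% and 69.3% of the span in vehicle), and H3K27Ac covers the largest share between TRPS1 and LINC00536 (43.9% in vehicle).

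Between TRPS1 and LINC00536 POLR3GL was nearly missing and acetylation was densest. That stretch of 281.5 kb held 59 H3K27Ac regions in each list, which covered 43.9% of it in vehicle and 31.2% with R5020. POLR3GL had 5 vehicle regions there and 0 with R5020, whereas POLR3G had 21 and 12, each of them on an H3K27Ac region. PR had 17 vehicle regions, all with H3K27Ac, and 56 R5020 regions, 42 of them with H3K27Ac. Maf1 had 6 and 19, and every one overlapped PR. Outside the window H3K27Ac lay under 53.6% and 61.3% of POLR3G regions and 89.6% and 28.7% of PR regions, in vehicle and with R5020. There PR lay under 53.2% and 82.1% of Maf1 regions. The longest stretch free of vehicle POLR3GL, from 115760121 to 116013553 (253.4 kb), held 70 vehicle H3K27Ac regions, 15 vehicle PR regions and 18 vehicle POLR3G regions. With R5020 the free stretch was 419.3 kb long, from 115657093 to 116076351, and held 77 H3K27Ac, 91 PR and 29 Maf1 regions of the R5020 lists. The vehicle list had 16 POLR3GL regions in this longer stretch.

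The strongest PR and Maf1 regions lay in or beside the same acetylated stretch. In vehicle the PR peak with the greatest -log10 q was at 115866637 to 115868026 (1390 bp, fold 15.8, -log10 q 120). With R5020 it was at 115861049 to 115862474 (fold 37.7, -log10 q 364), and the widest PR region was at 115777542 to 115781863 (4322 bp, fold 37.0), with 8 of 173129 regions wider. The median fold of R5020 PR regions was 8.25 in this stretch, against 4.64 in TRPS1 and 5.91 in LINC00536. The R5020 Maf1 region of highest -log10 q, 115804113 to 115804671 (fold 17.5, -log10 q 102), overlapped PR, H3K27Ac and POLR3G. In vehicle it was 115987709 to 115988239 in LINC00536 (fold 7.55, -log10 q 29.1), also with PR and H3K27Ac.

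Below TRPS1 the picture was the opposite of that beyond its start. In the 408.5 kb from the lower limit to TRPS1, POLR3GL had 177 vehicle and 90 R5020 regions, while H3K27Ac had 0 and 2 and PR had 0 and 14. From LINC00536 to EIF3H, POLR3GL had 128 and 33 regions and covered 15.9% and 2.84%, beside 20 and 18 H3K27Ac regions and 0 and 1 POLR3G regions. In LINC00536 itself POLR3GL had 58 and 7, and H3K27Ac 54 and 54. None of the POLR3GL regions that began in LINC00536 or beyond it overlapped POLR3G in either treatment. In TRPS1 146 of 193 vehicle regions and 129 of 166 R5020 regions did. POLR3G itself covered at most 0.488% of any part from LINC00536 on, against 69.3% and 69.8% of TRPS1. The overlap shares thus largely restate where POLR3G regions lay.

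With R5020 the POLR3GL regions of the window were fewer outside TRPS1, and little changed in number inside it. Over the window the log2 ratio of R5020 to vehicle counts was -0.99 (-1.20 to -0.79), against -0.74 (-0.95 to -0.53) for the list elsewhere. In the flanks, where 17 regions became 3, it was -2.50 (-4.92 to -0.71). With equal numbers of top regions the ratio over the window was -0.27 (-0.49 to -0.05), and with regions of fold 3 or more -0.28 (-0.61 to 0.05). Inside TRPS1 it was -0.22 (-0.53 to 0.09), and in the rest of the window, where 414 regions became 139, it was -1.57 (-1.86 to -1.29). In LINC00536 it was -3.05 (-4.43 to -1.92), and from LINC00536 to EIF3H -1.96 (-2.55 to -1.39). When the same number of regions of highest -log10 q, 603, was taken from each list, the ratio was 0.21 inside TRPS1 (144 and 166 regions) and -0.69 in the rest (224 and 139). With regions of fold 3 or more it was 0.20 and -1.0, and with regions joined within 1 kb 0.24 and -1.12, so the sign inside TRPS1 changed under these settings and the rest stayed negative. The vehicle POLR3GL regions had a median -log10 q of 4.26 in TRPS1 and of 2.945 to 3.371 in the other parts of the window. The part of this in the difference between TRPS1 and the rest was not tested. The list titled R5020 holds 1 library tagged ethanol, whose part in these values was not tested.

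**Figure D4:**
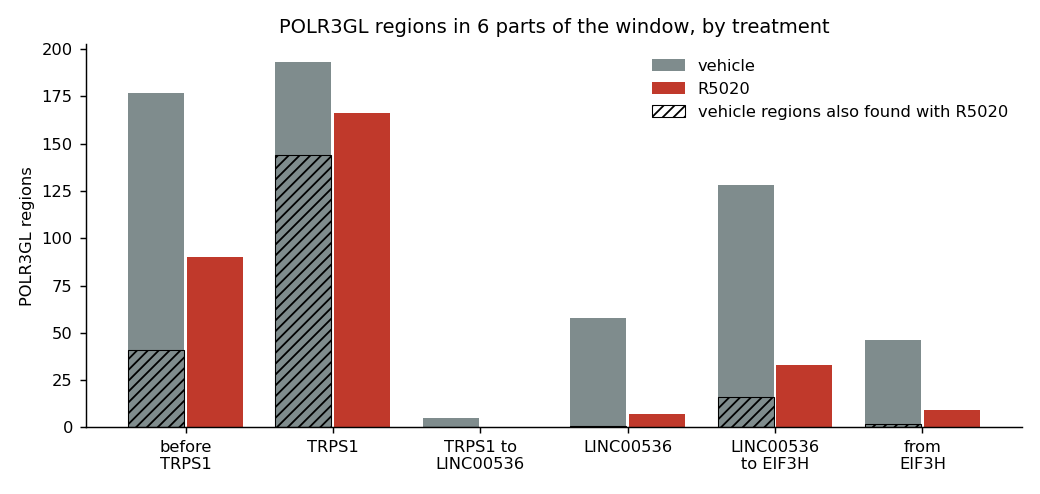
Number of POLR3GL regions (vertical axis) that begin in each of 6 gene-bounded parts of the window, for vehicle (grey) and R5020 (red), with hatching for the vehicle regions that overlap an R5020 POLR3GL region. In TRPS1 144 of 193 vehicle regions recur, and in LINC00536 1 of 58.

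POLR3GL regions of TRPS1 were overlapped again in the second list more than those of the rest of the window. Of the 607 vehicle POLR3GL regions, 204 (33.6%, 30.0 to 37.5) overlapped an R5020 POLR3GL region by at least 1 bp, against a background of 12.5% of the vehicle regions elsewhere. Inside TRPS1 it was 144 of 193 (74.6%, 68.0 to 80.2), before TRPS1 41 of 177 (23.2%), from LINC00536 to EIF3H 16 of 128 (12.5%) and in LINC00536 1 of 58. Under a rule that each region share at least 50% of its length with the other, 54 of 607 were found again in the window (8.90%, against 4.02% elsewhere) and 33 of 193 in TRPS1 (17.1%, 12.4 to 23.0), so most of the overlaps in TRPS1 were partial. Conversely, 198 of the 305 R5020 regions (64.9%, 59.4 to 70.1) overlapped a vehicle region, against a background of 20.1%. Vehicle regions found again were wider (median 470 bp against 306 bp) and of higher fold (2.92 against 2.75) than those that were not. The R5020 regions covered 44.1% of TRPS1 and at most 7.84% of any other of the 6 parts, and the part of this in the overlap was not tested.

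For the other antibodies the share found again lay on either side of the background. POLR3G kept 41 of 86 vehicle regions (47.7%, 37.5 to 58.1; background 39.2%), PR 26 of 29 (89.7%, 73.6 to 96.4; background 91.6%) and Maf1 12 of 14 (85.7%, 60.1 to 96.0; background 91.5%), each with an interval that holds its background. H3K27Ac kept 97 of 195 (49.7%, 42.8 to 56.7), below its background of 67.3%. Seen from the R5020 list, 140 of 185 H3K27Ac regions (75.7%, 69.0 to 81.3) had a vehicle region, above the background of 58.3%.

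Acetylation narrowed in the window with R5020 while the number of its regions stayed close. The log2 ratio of H3K27Ac counts was -0.08 (-0.37 to 0.22), against 0.34 (0.33 to 0.35) elsewhere. In the flanks, where 19 regions became 36, it was 0.92 (0.08 to 1.81). The bases covered in the window fell from 255.2 to 175.6 kb, 0.688 times the vehicle length. Elsewhere they went from 85.33 to 88.22 Mb, 1.03 times. The median width went from 471 to 364 bp in the window and from 475 to 404 bp elsewhere. In LINC00536 the covered share went from 16.1% to 7.34% with 54 regions in each list, and between TRPS1 and LINC00536 from 43.9% to 31.2%. In TRPS1 it went from 16.9% to 14.2%. With equal numbers of regions taken from both lists the ratio of counts was -0.49 (195 and 139 regions).

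PR and Maf1 regions were more numerous with R5020, but less so than in the rest of their lists. The log2 ratio was 3.32 for PR (2.77 to 3.93), against 4.70 (4.67 to 4.74) elsewhere, and 1.92 for Maf1 (1.05 to 2.89), against 2.90 (2.84 to 2.95). The lists themselves grew from 6663 to 173129 regions for PR and from 3049 to 22683 for Maf1. When equal numbers were taken the increase was gone. PR then had 29 and 22 regions (log2 ratio -0.40, -1.27 to 0.45) and Maf1 14 and 12 (-0.22, -1.465 to 0.998). Both intervals hold 0. POLR3G counts had a log2 ratio of -0.36 (-0.84 to 0.12), like the -0.32 elsewhere. In the flanks 2 POLR3G regions became 19 (log2 ratio 3.25, 1.20 to 6.39). In the upper flank, EXT1 with 10 kb on either side went from 1 to 18 POLR3G regions, from 9 to 24 H3K27Ac regions and from 0 to 60 PR regions, while POLR3GL went from 9 to 1.

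**Figure D5:**
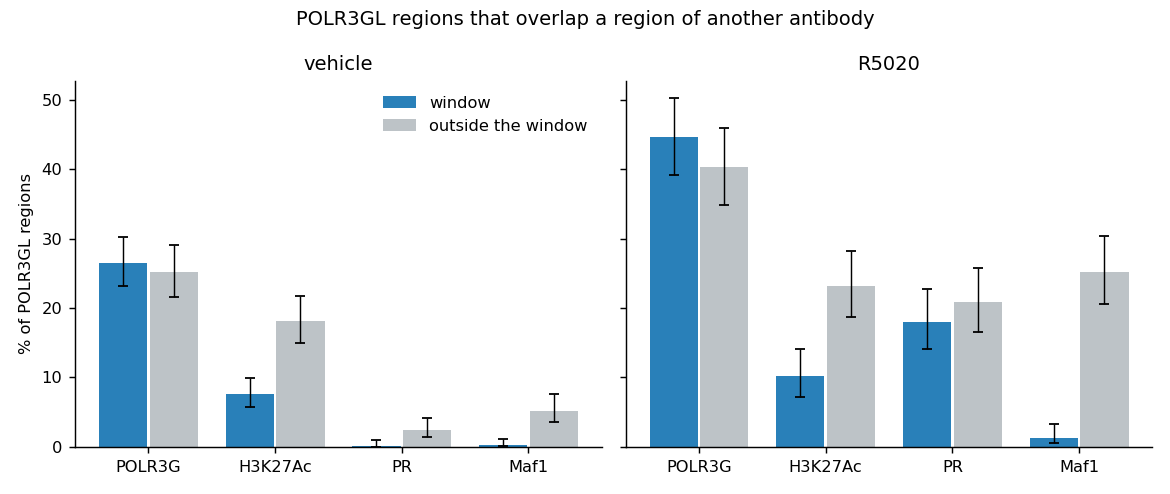
Percent of POLR3GL regions (vertical axis) that overlap a region of POLR3G, H3K27Ac, PR or Maf1 of the same treatment by at least 1 bp, in the window (blue) and outside it (grey), with 95% Wilson intervals for counting error. Overlap with POLR3G is alike in and outside the window, and overlap with H3K27Ac and Maf1 is lower in the window in both treatments.

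Over the whole window POLR3GL regions met POLR3G at a share near that elsewhere, and their shares with acetylation and Maf1 were lower, but the parts of the window differed. In vehicle 161 of 607 (26.5%, 23.2 to 30.2) overlapped POLR3G, against a background of 25.2%, and with R5020 136 of 305 (44.6%, 39.1 to 50.2), against 40.3%. H3K27Ac lay under 46 of 607 (7.58%, 5.73 to 9.96) in vehicle, against 18.1%, and under 31 of 305 (10.2%, 7.25 to 14.1) with R5020, against 23.2%. Inside TRPS1, of which H3K27Ac covered 16.9% and 14.2%, its share was 18.7% in each treatment (36 of 193 and 31 of 166). Before TRPS1 it was 0 of 177 and 0 of 90, but only 0 and 2 H3K27Ac regions lay there, so these zeros are not informative. The POLR3G share was 75.7% and 77.7% in TRPS1 and 8.47% and 7.78% before it. POLR3G covered 69.3% and 69.8% of TRPS1 and 3.70% and 2.42% of the part before it. The part of this coverage in the shares was not tested. Maf1 lay under 2 of 607 (0.329%, 0.0904 to 1.19), against 5.23%, and under 4 of 305 (1.31%, 0.511 to 3.32), against 25.2%. PR lay under 1 of 607 (0.165%, 0.0291 to 0.927), against 2.41%, and under 55 of 305 (18.0%, 14.1 to 22.7), against 20.8%. The difference for Maf1 and H3K27Ac exceeds the counting intervals in both treatments, and that for PR only in vehicle, but no test over samples could be made. Vehicle Maf1 and PR covered only 0.235% and 0.711% of the window, and R5020 Maf1 0.993%. Vehicle Maf1 had 0 regions in TRPS1, from LINC00536 to EIF3H and from EIF3H, and vehicle PR had 0 before TRPS1. Zeros in those parts were fixed in advance, so the low vehicle shares with Maf1 and PR are little informative. Of the 55 R5020 regions with PR, 46 lay in TRPS1.

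POLR3C and Brf1 had 0 regions in the window in both lists, and POLR3A had 0 and 1. That POLR3GL regions there overlapped none of them (0 of 607 and 0 of 305) was thus all but fixed in advance. These zeros say nothing about POLR3GL. Of the vehicle POLR3GL regions elsewhere, 0% lay on POLR3A, 0.805% on POLR3C (4 of 497) and 0% on Brf1. Elsewhere the R5020 shares were 3.36% (10 of 298), 4.03% (12) and 3.69% (11). The single POLR3A region, at 116678863 to 116679200 in EIF3H (338 bp, fold 3.44, -log10 q 2.44, R5020), overlapped an R5020 H3K27Ac region and no other polymerase III antibody. The RefSeq table lists 1 gene of a polymerase III type in the window, the 5S pseudogene RNA5SP276 (116022686 to 116022779). Within 10 kb of it lay 5 vehicle and 0 R5020 POLR3GL regions, and no POLR3A, POLR3C or Brf1 region.

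Among the other antibodies, POLR3G regions met PR more often over the whole window than elsewhere. R5020 PR regions met POLR3G more often too, mainly in TRPS1. The other shares lay above or below their backgrounds. POLR3G regions met H3K27Ac in 55 of 86 cases in vehicle (64.0%, 53.4 to 73.3; background 53.6%) and in 43 of 67 with R5020 (64.2%, 52.2 to 74.6; background 61.3%). They met PR with R5020 in 41 of 67 (61.2%, 49.2 to 72.0), above the background of 36%, and in vehicle in 14 of 86 (16.3%, 9.95 to 25.5), above 6.84%. Between TRPS1 and LINC00536 it was 12 of 12 with R5020 and 10 of 21 in vehicle, and in TRPS1 22 of 40 and 2 of 40. PR was itself dense in the window, with 290 R5020 and 29 vehicle regions against medians of 105 and 2 per window. The part of PR density and of POLR3G width in these shares was not tested. From the side of PR, 77 of 290 R5020 regions met POLR3G (26.6%, 21.8 to 31.9; background 9.7%). In TRPS1, where R5020 POLR3G covered 69.8% of bases, 61 of 76 did. Between TRPS1 and LINC00536 it was 11 of 56, and in LINC00536 1 of 65. Before TRPS1 it was 1 of 14, from LINC00536 to EIF3H 0 of 37, and from EIF3H 3 of 42. In vehicle 15 of 29 PR regions met POLR3G (51.7%, 34.4 to 68.6), against a background of 64.4%. POLR3G met Maf1 with R5020 in 22 of 67 (32.8%, 22.8 to 44.7; background 20.7%). PR met H3K27Ac in 28 of 29 cases in vehicle (96.6%, 82.8 to 99.4; background 89.6%) and in 112 of 290 with R5020 (38.6%, 33.2 to 44.3; background 28.7%). Maf1 met PR in 10 of 14 cases in vehicle (71.4%, 45.4 to 88.3; background 53.2%) and in 49 of 53 with R5020 (92.5%, 82.1 to 97.0; background 82.1%). Maf1 met POLR3G in 26 of 53 with R5020 (49.1%, 36.1 to 62.1; background 46.3%), and H3K27Ac in vehicle in 9 of 14 (64.3%, 38.8 to 83.7), below the background of 87.7%. The 4 vehicle Maf1 regions without PR were those below the lower end of TRPS1.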

How the data were processed

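ChIP-seq was done in T47D cells after 1 h of ethanol vehicle or R5020, with 8 antibodies and 3 libraries per group (54 libraries with 6 input libraries, which are not analysed here). Per the submitters' processing notes, cutadapt, Bowtie2 and MACS2 were used and the build was hg38; versions, settings and the way libraries were combined are not given in the sources used here. The deposited lists give for each region a fold enrichment (a ratio) and the -log10 of a q-value; both are the authors' values. The lowest -log10 q over all lists was 1.30. Depth is unknown, since the lists hold no reads.

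Of 520465 rows, 518593 lay on the assembled chromosomes 1 to 22, X or Y and were used. Regions were assigned by start and overlapped when they shared at least 1 bp. Shares have 95% Wilson intervals; ratios of counts have exact conditional binomial intervals. Backgrounds are the regions of the same list outside the window. Gene spans came from RefSeq (GRCh38.p14); the 6 parts of the window were bounded by genes after the data had been seen. No sequence is printed. Regions were named by a rule: per list, the highest -log10 q and the widest region of the window, the 5 POLR3GL regions of highest fold, lists of 5 or fewer regions, and the neighbours of the limits. Members and lists were chosen with earlier results of these data known. Overlap functions were tested on simulated data. Alternatives were -log10 q of at least 5, fold of at least 3, joining within 1 kb, equal numbers of top regions, other flanks, other overlap rules and bins of 50 kb. Python 3.11.15, pandas 2.3.3 and scipy 1.17.1 were used.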

Additional observations from a re-analysis of the deposited data

How the results depend on the processing

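Over 49 results and 157 alternatives, 83 values moved by less than their counting interval (for a count of regions, by less than 1.5 times), 72 moved more and 2 reversed; the cause was not tested. The results for TRPS1 alone were added after seeing the data. The reversals were the log2 ratios of PR (-0.40) and Maf1 (-0.22) with equal numbers of top regions, and the interval of each holds both signs. POLR3GL then gave -0.27 and H3K27Ac -0.49. With -log10 q of at least 5, fold of at least 3 and joining within 1 kb, in that order, vehicle and R5020 counts were 113, 172, 264 and 68, 142, 145 for POLR3GL, 20, 14, 40 and 17, 18, 31 for POLR3G, and 98, 120, 110 and 78, 116, 105 for H3K27Ac. Vehicle Maf1 had 7 (q) and 9 (joined).

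The log2 ratio of POLR3GL was -0.73 (q) and -0.28 (fold), and that of POLR3G 0.36 (fold). Inside TRPS1 it was 0.20 (fold), 0.24 (joined) and 0.21 (equal numbers) for POLR3GL; in the rest of the window -2.36 (q), -1.0 (fold), -1.12 (joined) and -0.69 (equal numbers).

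The ratio to the flanks for vehicle POLR3GL was 172 (fold), 33.0 (joined), 40.5 (flanks of 1 Mb), 303.5 (lower flank alone) and 40.5 (upper alone). It was 3.53 for R5020 POLR3G (upper), 9.00 for R5020 Maf1 (q), 7.07 and 2.66 for R5020 PR (lower, upper), 12.2 and 48.8 for vehicle H3K27Ac (1 Mb, lower), and 6.50, 30.8 and 6.17 for R5020 H3K27Ac (q, lower, upper). It could not be computed, for lack of flank regions, for vehicle POLR3GL (q), for R5020 POLR3G (q, fold, lower flank) and for vehicle PR and Maf1.

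With at least 50% of both regions shared, the shares of vehicle regions found again were 8.90% (POLR3GL), 15.1% (POLR3G), 35.7% (Maf1), 37.9% (PR) and 21.5% (H3K27Ac), and 17.1% for POLR3GL inside TRPS1; with the q limit POLR3G gave 60.0% and H3K27Ac 38.8%. POLR3GL overlaps with H3K27Ac, POLR3G, PR and Maf1 became 1.65%, 1.15%, 0% and 0% in vehicle and 0.656%, 0.984%, 2.62% and 0% with R5020. With the q limit they were 4.42%, 50.4%, 0% and 0% in vehicle, and 72.1% (POLR3G) and 32.4% (PR) with R5020. Within 1 kb, H3K27Ac gave 17.6% and 23.3% and R5020 PR 36.1%. Bins of 50 kb left 52.5% free of R5020 Maf1, against 30.0%.

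No paired analysis was possible because each list pools 3 libraries and carries no replicate number, and no replicate was left out. Depth is unknown, so a difference in depth and a difference in binding cannot be told apart in ratios of counts between treatments. Antibodies differ in list length, so their region counts and covered lengths are not on a common scale.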

Other observations

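Outside the window the densest POLR3GL clusters had far fewer regions. In vehicle the 5 windows with the most, counted after setting aside the TRPS1 window, held 34, 29, 27, 25 and 23 regions. Of the 34 on chromosome 3 from 17 to 19 Mb, 32 lay at SATB1, a chromatin organiser gene, and 0 regions were found there with R5020. On chromosome 11 from 101 to 103 Mb, 20 of 29 lay at PGR, which encodes the progesterone receptor, and the R5020 list had 24 regions in the same window. On chromosome 12 from 115 to 117 Mb, 23 of 27 lay at MED13L, a mediator kinase module gene, with 12 regions with R5020. On chromosome 10 from 7 to 9 Mb only 3 of 25 lay at GATA3 and 2 at TAF3, and the R5020 list had 8 regions there. On chromosome 5 from 34 to 36 Mb the vehicle and R5020 lists had 23 regions each, of which 9 in vehicle and 19 with R5020 lay at PRLR, the prolactin receptor gene. These genes were read from the windows after their counts were seen, and no test was made.

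The median width in these 5 vehicle windows was 254 to 363 bp, against 347 bp in the TRPS1 window.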
